A study of Rattus norvegicus with 2 samples.

Results

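The peroxisome biogenesis genes and peroxisomal enzyme genes of rat liver were compared between 2 pools of RNA. Genes were taken by symbol: all peroxin (Pex) genes, the Abcd transporter genes and a set of peroxisomal enzyme genes. The set was chosen with earlier results of these data known. The table held 42 such genes on 51 probes. Of these, 40 carried the detection letter P on at least 1 array, out of 11911 genes measured in all, with a single value per gene from its brightest probe. The brain-type Pex5 relative Pex5l and the transporter gene Abcd2 carried the letter A on both arrays, and no difference is given for them.

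Both groups were male Wistar rats of 22 weeks of age with a chronic alcoholic fatty liver, produced by 52% alcohol at 1% of body weight for 7 weeks. The AT-EEP rats then received EEP in a 50% ethanol solution at 0.1% of body weight for 4 weeks. The AT-NS rats received normal saline at the same share of body weight over the same weeks. The labels do not spell out EEP, and the title of the study speaks of propolis extracts. As the labels read, the AT-EEP rats thus differed from the AT-NS rats in both the extract and the ethanol that carried it, and the labels name no group without alcohol. RNA of 6 livers per group was pooled onto 1 one-colour Agilent array, so each gene has 1 value per group, no replicate check and no p-value.

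Peroxisomes are organelles bounded by a single membrane that shorten very long and branched fatty acids, complete the side chains of bile acids, and start the synthesis of ether lipids. Their oxidases release hydrogen peroxide, which catalase removes. The matrix enzymes are made in the cytosol and imported by the peroxins, and in rodent liver the nuclear receptor PPAR-alpha switches on many of the oxidation genes and the division factor Pex11a.

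Upstream DNA of 5 genes is shown because they span the differences reported below, with Ehhadh the highest and Acot8 the lowest member, and because nuclear receptors of the PPAR type bind repeats of the half-site AGGTCA. The sequences are the 250 bases before the annotated start of each gene, 5′ to 3′ on the gene's own strand, from RefSeq on the build GRCr8. They are chr11:92746159-92746408 on the plus strand for Ehhadh, chr2:61673085-61673334 on the plus strand for Amacr and chr3:110329527-110329776 on the minus strand for Cat. Uox is at chr2:238146880-238147129 on the plus strand and Acot8 at chr3:173962189-173962438 on the minus strand. Capitals mark AGGTCA, or TGACCT where it lies on the other strand.
Ehhadh: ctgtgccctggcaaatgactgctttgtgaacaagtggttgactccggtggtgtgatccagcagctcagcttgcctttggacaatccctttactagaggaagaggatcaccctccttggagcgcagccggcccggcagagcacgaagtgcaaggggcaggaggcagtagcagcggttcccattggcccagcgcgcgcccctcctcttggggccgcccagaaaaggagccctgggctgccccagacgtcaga
Amacr: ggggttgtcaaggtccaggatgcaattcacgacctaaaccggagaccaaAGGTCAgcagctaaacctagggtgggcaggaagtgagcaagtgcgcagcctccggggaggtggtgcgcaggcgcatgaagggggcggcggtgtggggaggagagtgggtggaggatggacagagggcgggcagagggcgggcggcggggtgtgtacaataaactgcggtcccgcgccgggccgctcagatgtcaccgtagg
Cat: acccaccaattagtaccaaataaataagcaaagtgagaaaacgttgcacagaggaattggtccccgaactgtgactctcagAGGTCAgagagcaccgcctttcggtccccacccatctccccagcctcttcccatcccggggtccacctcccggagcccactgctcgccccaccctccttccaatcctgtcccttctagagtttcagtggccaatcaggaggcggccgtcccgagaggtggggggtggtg
Uox: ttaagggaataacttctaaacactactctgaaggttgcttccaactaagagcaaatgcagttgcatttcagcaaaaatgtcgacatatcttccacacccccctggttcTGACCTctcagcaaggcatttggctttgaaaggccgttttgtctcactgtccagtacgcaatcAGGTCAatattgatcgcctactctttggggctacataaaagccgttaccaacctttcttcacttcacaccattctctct
Acot8: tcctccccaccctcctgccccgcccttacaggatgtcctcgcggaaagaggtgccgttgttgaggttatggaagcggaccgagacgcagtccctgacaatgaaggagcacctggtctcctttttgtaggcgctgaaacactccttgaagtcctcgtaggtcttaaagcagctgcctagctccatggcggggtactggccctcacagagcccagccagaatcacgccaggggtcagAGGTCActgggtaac
The window of Ehhadh, the most different gene, held no AGGTCA on either strand. The half-site began at position -15 from the start in Acot8, at -169 in Cat, at -201 in Amacr, and at -142 and -79 in Uox. Of the 40 measured genes, 34 had an entry, with 35 windows in all since Agxt had more than 1 start. AGGTCA on either strand was found in 7 of these 35 windows (20.0%), in 14.1% of all 33469 windows of this length, and in 11.4% of the 10097 windows of measured genes. The 7 genes that held it were Acot8, Amacr, Cat, Dao, Hsd17b4, Pex11g and Uox. Their median log2 difference was 0.37, and that of the 27 genes without it was 0.06, but 4 of those 27 were at least 1.5-fold higher and none of the 7 was, against 8.07% of all measured genes. At least 1.5-fold lower were 1 of the 7, Acot8, and 0 of the 27, against 10.2% of all measured genes. The direct repeat AGGTCANAGGTCA was in none of the 35 windows and in 0.0508% of all windows. With the first base of the repeat free (NGGTCANAGGTCA, a search added after the sequences were seen, which overlaps the half-site) it was found in 1 of the 35, that of Acot8, and in 0.0837% of all windows. The GC box GGGCGG was in 21 of the 35 windows (60.0%), in 30.5% of all windows and in 54.5% of those of measured genes. These are matches of letters and do not show that a factor binds there. DNA beyond these 250 bases was not searched, so a window without a match does not show that the gene, Ehhadh included, lacks a site.

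Most peroxisomal genes, 33 of 40 (82.5%), differed by less than 1.5-fold between the pools, as did 81.7% of all measured genes. Under 1.2-fold were 19 of the 40, and 6766 of the 11911 genes measured in all. Ehhadh, Hao2, Ech1, Crat and the import receptor gene Pex7 were at least 1.5-fold higher in the AT-EEP pool, and Acot8 was the lowest. Differences are log2 signals of the AT-EEP pool minus those of the AT-NS pool, as deposited. Of 40 genes, 1 (2.5%) was at least 2-fold higher, against 3.57% of all measured genes, and 0 were at least 2-fold lower, against 5.08%. At least 1.5-fold higher were 5 genes (12.5%), against 8.07% of all genes, and 2 (5.0%) were at least 1.5-fold lower, against 10.2%. Above 0 lay 21 genes (52.5%), against 52.4% of all measured genes, and below 0 lay 19. The median difference was 0.07 over the 40 genes and 0.02 over all measured genes. The shares of peroxisomal genes beyond either threshold were thus near those of the whole array.

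A technical scale came from genes with more than 1 probe detected on both arrays. The robust spread between such probes, as an SD per probe and called the probe SD here, was 0.34 where the mean log2 signal was under 6, 0.20 from 6 to 8, 0.17 from 8 to 10, 0.13 from 10 to 12 and 0.11 above that, over 2596 genes in all. This scale reflects error between probes and spots. Error that the probes of a gene share, as from pooling or labelling, cancels in it, and it says nothing of the spread between animals. By this scale 13 of the 40 genes differed by less than 1 probe SD. The matching share of all measured genes was not computed, so this count is not read as a trait of these genes. A single detected probe read 33 of the 40 genes, and 7 had more. Among these 7, all probes lay on the same side of 0 in 5.

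**Figure D1:**
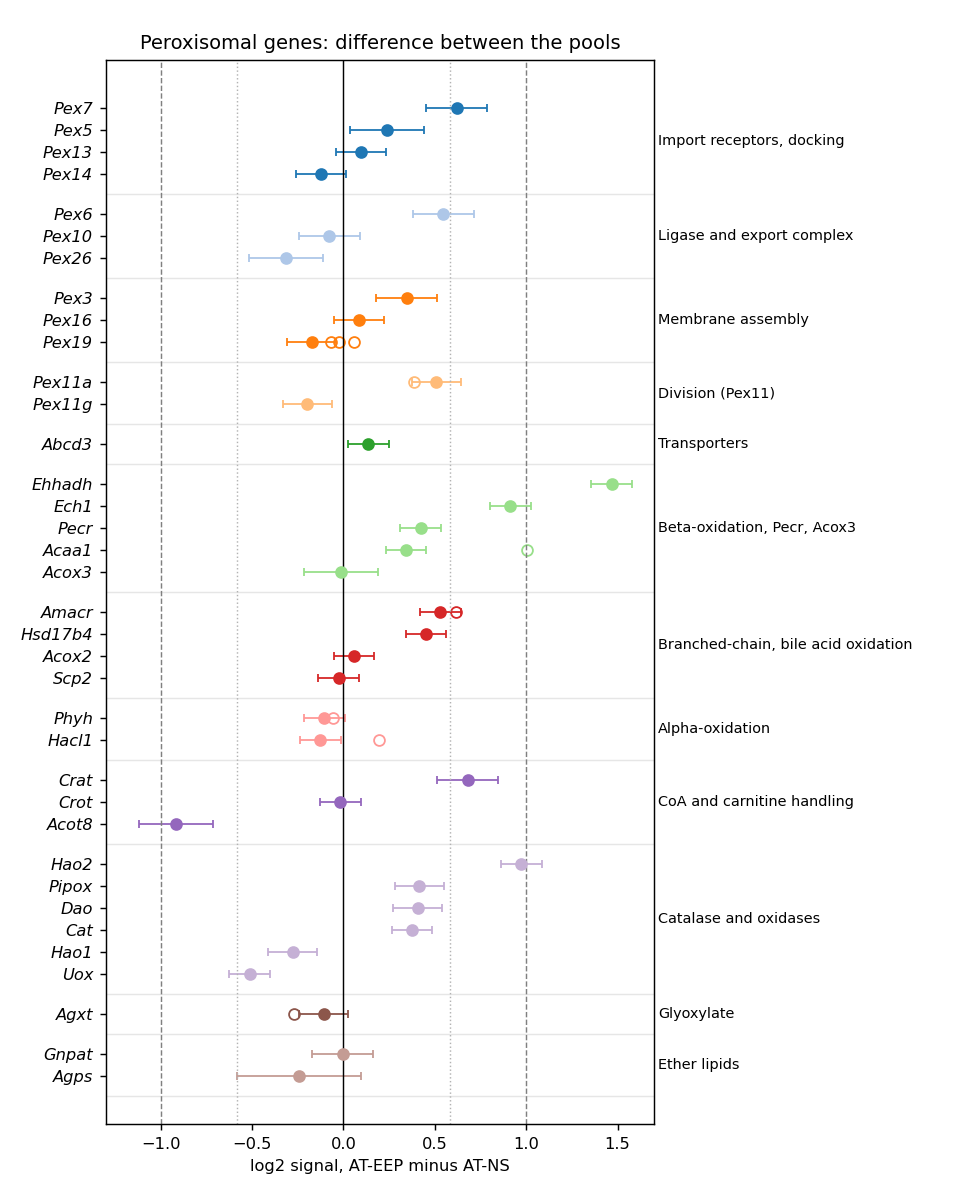
Log2 difference (AT-EEP minus AT-NS, horizontal axis) of 36 of the 40 measured peroxisomal genes, grouped by role. Filled points are the brightest probe with bars of ± 1 probe SD, open points are further probes of the same gene, dotted lines mark 1.5-fold and dashed lines 2-fold. Ehhadh is the only filled point beyond 2-fold, and Acot8 is the lowest of the genes drawn.

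Beta-oxidation removes carbon pairs from fatty acyl-CoA inside the peroxisome, and its gene Ehhadh held the largest difference. Ehhadh, Ech1 and Acaa1 are described together with the reductase Pecr and the oxidase Acox3. Of these 5 genes, 4 lay above 0 (80.0%), against 52.4% of all measured genes. Ehhadh, the bifunctional hydratase and dehydrogenase of its middle steps, had a log2 signal of 13.30 in the AT-EEP pool, against 11.84 in the AT-NS pool (2.77-fold higher, difference 1.47, probe SD 0.11). It was the highest of the 40 genes. In the deposited coordinates, for which the sources used here name no build, its single probe covers bases 81506762 to 81506821 of chromosome 11.

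Ech1, a dienoyl-CoA isomerase that handles unsaturated chains, had 14.51 in the AT-EEP pool, against 13.60 in the AT-NS pool (1.88-fold higher, probe SD 0.11). Pecr, a trans-enoyl-CoA reductase that is not a step of beta-oxidation, had 13.72 in the AT-EEP pool, against 13.30 in the AT-NS pool. Acox3, in rat an acyl-CoA oxidase of branched chains, had 7.79 in the AT-EEP pool and 7.80 in the AT-NS pool, which differ by less than its probe SD of 0.20.

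The thiolase gene Acaa1, now named Acaa1a, catalyses the last step, and its probes disagreed in size. The brightest had 16.83 in the AT-EEP pool, against 16.49 in the AT-NS pool (difference 0.34), and the other had 15.23 in the AT-EEP pool, against 14.23 in the AT-NS pool (difference 1.00). The gap between the probes, 0.66, was several times the probe SD of 0.11. Rats carry a close copy of this thiolase, Acaa1b, which the table lists under the older symbol RGD1562373. Its probe had 16.45 in the AT-EEP pool, against 14.49 in the AT-NS pool (3.89-fold higher). Probes of such close copies can bind each other's transcripts, and the arrays cannot separate them. The cause of the gap between the Acaa1 probes was not tested.

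The table also holds a probe without a gene symbol whose deposited description names peroxisomal acyl-coenzyme A oxidase 1, the enzyme of the first step. It had 16.84 in the AT-EEP pool, against 16.47 in the AT-NS pool (1.30-fold higher, probe SD 0.11). This probe was outside the 40 genes, as were Acaa1b and Pex2.

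All 4 further genes of branched-chain and bile acid oxidation differed by less than 1.5-fold, as did 81.7% of all measured genes. Their median was 0.26. Amacr, the racemase that turns branched acyl-CoA into the form the oxidase accepts, had 14.89 in the AT-EEP pool, against 14.36 in the AT-NS pool. Its other probe differed by 0.62, close to the 0.53 of the brightest. Hsd17b4, the bifunctional enzyme of this branch and the counterpart of Ehhadh, had 13.09 in the AT-EEP pool, against 12.64 in the AT-NS pool. Acox2, in rat the oxidase of bile acid intermediates, had 13.54 in the AT-EEP pool and 13.49 in the AT-NS pool. Scp2, which includes the thiolase of this branch, had 17.26 in the AT-EEP pool and 17.28 in the AT-NS pool. These last differences were under the probe SD of 0.11.

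Alpha-oxidation, which takes a single carbon off phytanic acid, did not stand out. Phyh, the hydroxylase, differed by -0.10 by its brightest and -0.06 by its other probe. Hacl1, the lyase of the next step, had 12.59 in the AT-EEP pool and 12.72 in the AT-NS pool by its brightest probe, and its other probe lay on the opposite side of 0 (difference 0.20).

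The genes that pass products out of the peroxisome went in opposite directions. Crat, the carnitine acetyltransferase of short chains, had 8.76 in the AT-EEP pool, against 8.08 in the AT-NS pool (1.60-fold higher, probe SD 0.17). Crot, the carnitine octanoyltransferase of medium chains, had 14.09 in the AT-EEP pool and 14.11 in the AT-NS pool, under its probe SD. Acot8, a thioesterase that releases free acids from CoA, had 6.09 in the AT-EEP pool, against 7.01 in the AT-NS pool (1.89-fold lower, probe SD 0.20), the lowest difference of the 40 genes. Crat and Acot8, at opposite ends of this group, both had a single detected probe under their symbols. With 50 signal units added before the log, the difference of Acot8 was -0.60 in place of -0.92.

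**Figure D2:**
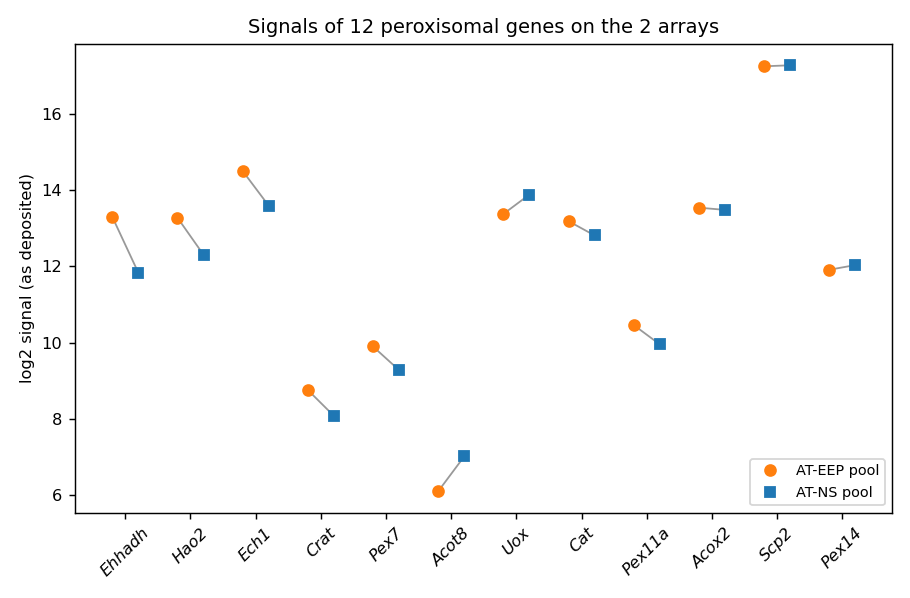
Deposited log2 signal (vertical axis) of 12 peroxisomal genes on each array, with the AT-EEP pool as circles and the AT-NS pool as squares joined by a line per gene. Lines slope most for Ehhadh (13.30 in the AT-EEP pool against 11.84 in the AT-NS pool) and run nearly flat for Scp2 (17.26 in the AT-EEP pool against 17.28 in the AT-NS pool). Heights of different genes are not comparable, since each gene has its own probe.

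Among catalase and the oxidases, 4 of 6 genes lay above 0 (66.7%, against 52.4% of all measured genes), with a median of 0.39. Cat, the catalase that breaks down hydrogen peroxide, had 13.19 in the AT-EEP pool, against 12.82 in the AT-NS pool (1.30-fold higher, probe SD 0.11). Hao2, a hydroxyacid oxidase of long-chain hydroxy acids, had 13.28 in the AT-EEP pool, against 12.31 in the AT-NS pool (1.96-fold higher, just under 2-fold). Its relative Hao1, the glycolate oxidase of liver, had 10.92 in the AT-EEP pool, against 11.20 in the AT-NS pool, on the other side of 0. The hydroxyacid oxidases therefore differed in opposite directions, by 0.97 and -0.28.

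Dao, the D-amino acid oxidase, had 11.03 in the AT-EEP pool, against 10.62 in the AT-NS pool. Pipox, which oxidises pipecolic acid and sarcosine, had 11.75 in the AT-EEP pool, against 11.33 in the AT-NS pool. Uox, the urate oxidase that makes up the crystalline core of rat liver peroxisomes, had 13.38 in the AT-EEP pool, against 13.89 in the AT-NS pool (1.43-fold lower, probe SD 0.11). It was the lowest of the oxidases. Agxt, which removes the glyoxylate that Hao1 forms, differed by -0.11 by its brightest and -0.27 by its other probe.

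Both ether lipid genes measured here, which act in the peroxisome on the first steps of plasmalogen synthesis, lay near 0. Gnpat, the acyltransferase, had 8.74 in both pools. Agps, the alkyl synthase that follows, had 5.28 in the AT-EEP pool and 5.52 in the AT-NS pool, under the probe SD of 0.34 at that low signal.

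The biogenesis genes spanned a narrower range than the enzymes. Of 15 measured peroxin genes, 8 lay above 0 (53.3%, against 52.4% of all measured genes) and 7 below. None was 2-fold apart, against 3.57% of all measured genes higher and 5.08% lower. Of the 15, 14 (93.3%) differed by less than 1.5-fold, against 81.7% of all measured genes. Their median was 0.09, with a range of -0.31 to 0.62. The 23 enzyme genes had a median of 0.06 but a wider range, -0.92 to 1.47, and 18 of them (78.3%) differed by less than 1.5-fold, so the share of the whole array lies between those of both sets. The difference in spread between these sets was not tested.

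Pex7 and Pex5 are the receptors that carry matrix enzymes to the membrane, each for its own targeting signal. Pex7 had 9.90 in the AT-EEP pool, against 9.28 in the AT-NS pool (1.54-fold higher, probe SD 0.17). Pex5 had 6.55 in the AT-EEP pool and 6.32 in the AT-NS pool (difference 0.24, probe SD 0.20). The docking genes Pex13 (0.10) and Pex14 (-0.12), which receive these carriers at the membrane, differed by less than the probe SD of 0.13.

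Receptors are returned to the cytosol by a ubiquitin ligase and an ATPase complex. Pex6, an ATPase of that complex, had 9.67 in the AT-EEP pool, against 9.12 in the AT-NS pool (1.46-fold higher). Its membrane anchor Pex26 had 6.46 in the AT-EEP pool, against 6.78 in the AT-NS pool. Pex6 and its anchor thus lay on opposite sides of 0, at 0.54 and -0.31. The ligase gene Pex10 (-0.08) differed by less than its probe SD of 0.17. A further ligase gene, Pex2, stands in the table under the older symbol Pxmp3, outside the 40 genes, and had 9.45 in the AT-EEP pool, against 9.27 in the AT-NS pool.

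Of the genes that insert membrane proteins, Pex3, the membrane anchor for Pex19, had 8.34 in the AT-EEP pool, against 7.997 in the AT-NS pool. Pex16 differed by 0.09. Pex19, the soluble chaperone, was read by 4 probes with differences from -0.17 to 0.06. The Pex11 genes drive elongation and division of peroxisomes. Pex11a had 10.46 in the AT-EEP pool, against 9.95 in the AT-NS pool (1.42-fold higher, probe SD 0.13), with its other probe at 0.38. Pex11g (-0.20) lay on the other side of 0.

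Among the ABC transporters, Abcd3 brings branched-chain, bile acid and dicarboxylic acyl-CoA into the peroxisome. Abcd3 had 15.42 in the AT-EEP pool, against 15.29 in the AT-NS pool. The difference of 0.14 was close to its probe SD of 0.11. An unnamed probe described as matching mouse Abcd4, a gene grouped here by its name alone, had 7.73 in the AT-EEP pool and 7.62 in the AT-NS pool.

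A list of other peroxisomal genes was chosen with earlier results of these data known, so its counts only describe. It takes in fatty acid activation, thioesterase, reductase and division genes, and most of its measured members lay above 0. Of 50 listed, 44 were in the table and 43 were measured. Of these, 35 (81.4%) lay above 0 and 8 below, against 52.4% above 0 over all measured genes, and the median was 0.23. At least 2-fold higher were 4 of the 43, against 3.57% of all genes, and 1 was at least 2-fold lower, against 5.08%. Besides Acaa1b, the genes at least 2-fold higher were Far1, Ephx2 and Acot4.

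Far1, the reductase that supplies fatty alcohols for ether lipids, was detected on the AT-EEP array alone, at 6.12. That is 4.89-fold above the lowest detected value of the AT-NS array (3.83), which need not be the detection limit of its own probe. Ephx2, the soluble epoxide hydrolase, had 10.42 in the AT-EEP pool, against 8.69 in the AT-NS pool (3.33-fold higher). Acot4, known in mouse as a peroxisomal thioesterase of dicarboxylic acyl-CoA, had 10.78 in the AT-EEP pool, against 9.74 in the AT-NS pool (2.07-fold higher). At the other end stood Gstk1, a kappa glutathione transferase of mitochondria and peroxisomes, with 12.77 in the AT-EEP pool, against 14.14 in the AT-NS pool (2.58-fold lower). Agpat3 (-0.84, and -0.49 by a second probe), an acyltransferase, and Mavs (-0.42), an antiviral adaptor found on mitochondria and peroxisomes, followed. Each of Far1, Ephx2, Acot4 and Gstk1 had 1 probe on the array.

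Genes of the mitochondrial pathway and of the PPAR-alpha axis are given for comparison. These lists too were chosen with earlier results of these data known. Of 21 mitochondrial beta-oxidation genes, 19 (90.5%) lay above 0, against 52.4% of all measured genes, with a median of 0.22. At least 2-fold higher was 1 of the 21, against 3.57% of all measured genes. Their range was -0.04 (Acads) to 1.55 (Eci1), with Decr1 at 0.95. Of 17 measured genes of the PPAR-alpha axis, 13 (76.5%) lay above 0, with a median of 0.14. Acot1 (1.73), Pdk4 (1.59), Vnn1 (1.52) and Acot2 (1.10) were the 4 members at least 2-fold higher, against 3.57% of all measured genes. The lowest were the regulators Ppargc1b (-0.30), Rxra (-0.18) and Ppargc1a (-0.16). The PPAR-alpha and mitochondrial lists share 4 genes. Beside these the 40 peroxisomal genes, with 21 above 0 and a median of 0.07, lay closer to the array as a whole. That did not hold for the 9 genes grouped under both branches of beta-oxidation, Pecr included. There 7 lay above 0 (77.8%) and 2 below, with a median of 0.42, higher than the medians of the mitochondrial and PPAR-alpha lists. No test of these differences was possible with 1 array per group.

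**Figure D3:**
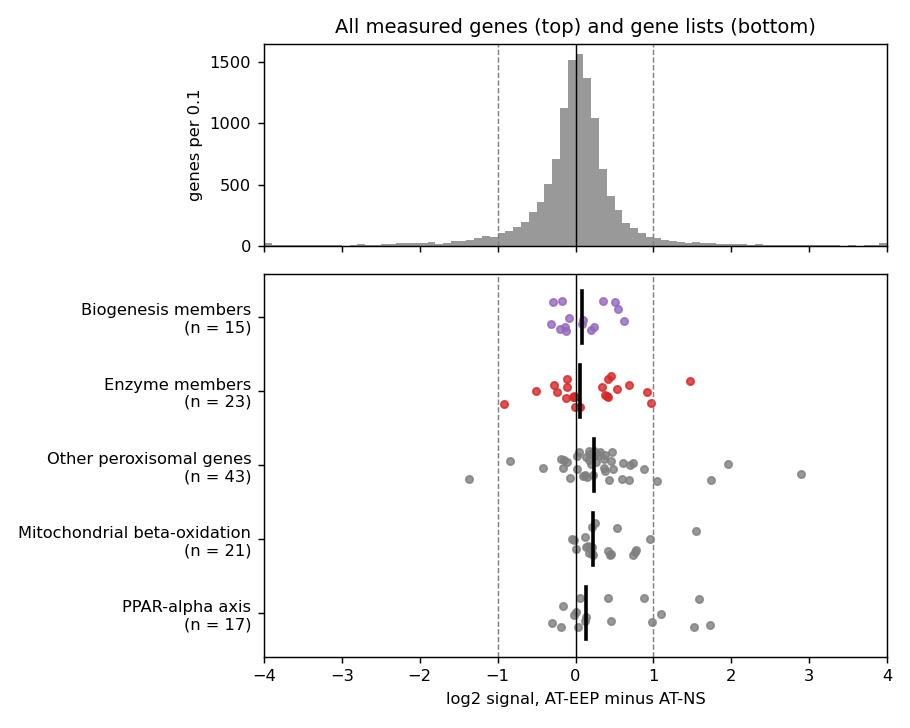
The upper panel counts all 11911 measured genes by log2 difference (AT-EEP minus AT-NS) in steps of 0.1, with genes further out counted in the end bins. The lower panel shows each gene of 5 sets as a point with the set's median as a black bar, where dashed lines mark 2-fold, and Far1, detected on 1 array, is drawn at its measured 2.89. Biogenesis and enzyme genes centre near 0 (0.09 and 0.06), and the other peroxisomal list centres at 0.23.

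Both pools carried liver RNA by the hepatocyte list: all 7 genes were detected, 3 lay above and 3 below 0, and their summed log2 signal was 20.37 in the AT-EEP pool and 20.45 in the AT-NS pool. Markers of Kupffer cells and macrophages had a median difference of -0.61 (5 of 6 below 0), with a summed log2 signal of 15.17 in the AT-EEP pool and 15.71 in the AT-NS pool. The 4 measured erythroid markers, all lower, had a median of -0.99 (summed 11.56 in the AT-EEP pool and 12.41 in the AT-NS pool). The 3 measured neutrophil markers, all lower too, had a median of -1.60 (summed 8.03 in the AT-EEP pool and 9.31 in the AT-NS pool). The 4 endothelial markers were all lower (median -0.63, summed 11.40 in the AT-EEP pool and 11.95 in the AT-NS pool), as were 3 T and NK cell markers (median -0.46, summed 8.39 in the AT-EEP pool and 8.88 in the AT-NS pool). Of 4 stellate markers, 3 lay above 0 (summed 11.86 in the AT-EEP pool and 11.39 in the AT-NS pool). Of 4 cholangiocyte markers, 2 were measured, 1 on each side of 0 (summed 8.46 in the AT-EEP pool and 8.03 in the AT-NS pool). Elane, Cd3e, Krt7, Sox9 and Hba1 had no detected value under these symbols. The part of these cell types in the differences of the peroxisomal genes was not tested. In pooled tissue, fewer cells of a type and less RNA per cell cannot be told apart.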

How the data were processed

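Liver RNA of 2 pools, AT-EEP and AT-NS, was measured on 1 Cy3-labelled Agilent array each, and only RNA with an integrity number above 8.5 was pooled, per the labels' protocols. Per the submitters' processing notes, Agilent Feature Extraction 9.5 read the scans. For 41012 probes the authors deposited log2 values and, on each array, the letter P, M or A. The sources used here do not define the letters, and P was taken as detected. The sorted columns differed by at most 0.0255, as after quantile normalization. The authors also deposited a linear fold ratio, which equals 2 to the power of the AT-EEP minus the AT-NS value. The authors' deposited series matrix holds the same log2 values, rounded and uncentred (medians 7.53 and 7.52), for those 23054 probes that carried P on each array. P was carried by 59.4% of probes on each array.

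The values were used as deposited: the planned scaling to the 75th percentile moves nothing, since that percentile was 7.94 on both arrays. Members were found by the file's symbols, and other genes were renamed by Entrez ID to RefSeq names of GRCr8. The brightest probe stood for its gene, kept with P on at least 1 array, and all members kept had P on both. Counts used 2-fold and 1.5-fold. For a gene with P on 1 array the fold is a nominal bound against the dim probe's value or the lowest P value of that array (3.83), whichever was higher. Every member could be named, though 4 are counted but not reported singly here; of the other lists, genes at least 2-fold apart and up to 3 furthest from 0 in each direction. Members and lists were chosen with earlier results of these data known. Alternatives were centring on the median, quantile and loess normalization (span 0.3), the series matrix, other filters and probe rules, 50 signal units added, a 3-fold threshold, the mean, and 4 probes found under other names, the last chosen after seeing the data. The counting code recovered simulated differences set well beyond both the threshold and the noise. That checks the code and says nothing of genes near a threshold. Python 3.11.15, numpy 2.4.6, pandas 2.3.3, statsmodels 0.14.6 and matplotlib 3.10.9 were used. The number of arrays limits the precision.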

Additional observations from a re-analysis of the deposited data

How the results depend on the processing

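No paired analysis was possible because each group has 1 array, and for the same reason no replicate could be left out. Under 12 alternatives the central value of the peroxisomal genes ranged from 0.05 to 0.14. The low end was the median after centring on the median of all genes. The high end was the mean in place of the median, where the mean of all measured genes was -0.01. The highest median was 0.10, with 4 probes found under other names. With 50 signal units added before the log, 1 gene was at least 1.5-fold lower in place of 2, and the higher count was 4 in place of 5, while by the mean of the probes the higher count was 6; no gene was at least 3-fold higher (0 in place of the 1 at 2-fold). Several alternatives could move few single genes or none. All 40 genes carried P on both arrays, so the filters changed no value. Probe rules could not move the 33 genes with 1 detected probe. The series matrix holds the same values rounded, and quantile normalization nearly repeats the deposited values. Of 360 values of single genes under 9 alternatives, 355 moved by less than the probe SD, a count largely set by these limits. The others included Acot8 (-0.60) with 50 units added, Acaa1 (0.67) and Hacl1 (0.03, now above 0) by the mean of the probes, and Agxt (-0.27) by the probe with the median difference. The cause was not tested. Genes with low signals, such as Agps and Acot8, had the largest probe SD, and no value here holds the spread between animals.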

Other observations

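Probes without a symbol that share a UniGene cluster with a peroxisomal gene gave a further look at 9 of the genes. Of 12 such probes, 9 were detected, and 5 of the 9 lay on the same side of 0 as the named gene. The unnamed probe in the cluster of Crat differed by 0.62, beside 0.68 for Crat itself. The one in the cluster of Agxt had 7.23 in the AT-EEP pool, against 6.11 in the AT-NS pool (difference 1.12), where the named Agxt probe differed by -0.11. Those of Hacl1 (0.31) and Acaa1 (-0.08) also lay opposite to the named probe. The files do not say which transcript these probes read.

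By the ontology terms in the deposited table, 37 of the 40 genes carried a peroxisome term, and Hao1, Pex7 and Pex11g did not. Outside the 40, 42 measured genes carried such a term, with a median difference of 0.23, 32 of them above 0 (76.2%, against 52.4% of all measured genes), 8 beyond 1.5-fold on the higher side (8.07% over all measured genes) and 0 on the lower side (10.2% over all). Many of these also stand in the list of other peroxisomal genes, so the sets are not independent. Of the 40 genes, 17 also carried a mitochondrion term, with a median of 0.14 and 4 at least 1.5-fold higher, and the other 23 had a median of 0.06 and 1 at least 1.5-fold higher, against the same 8.07% over all genes. Ontology terms of this age are incomplete, and the difference between these sets was not tested.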
